A study of Homo sapiens with 18 samples.

Results

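The genes described here encode the subunits, regulators and assembly chaperones of the proteasome. They were chosen by name: every row of the gene count table whose symbol was PSMA, PSMB, PSMC, PSMD, PSME, PSMF or PSMG followed by a number and nothing else. The rule took 48 of the 18670 genes in the table, and 2 symbols with letters after the number, PSMC3IP and PSME3IP1, were set aside. Of the 48 genes, 47 had enough counts to be tested in every comparison, and PSMB11, a catalytic subunit made in the thymus cortex, did not, with a mean of at most 0.0745 CPM (read counts per 1e6 counts of a library, TMM-scaled) in any group.

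The proteasome is the barrel-shaped protease that degrades ubiquitin-tagged proteins in the nucleus and cytosol. Its core stacks rings of alpha subunits on rings of beta subunits, of which PSMB5, PSMB6 and PSMB7 carry the protease sites, and a regulatory particle with a base of ATPases and a lid recognises, deubiquitinates and unfolds substrates. In blood cells and under interferon, PSMB8, PSMB9 and PSMB10 replace those catalytic subunits in an immunoproteasome, which generates peptides for MHC class I.

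Gene expression was measured by RNA sequencing in U937 and THP-1, established human lines of monocytic leukemia, to profile the response to changed S100A9 levels and to Adavivint. S100A9 is a calcium-binding protein of myeloid cells, and Adavivint is a small-molecule kinase inhibitor known for its action on Wnt signalling. There were 6 groups of 3 libraries: U937 with an empty lentiviral vector, U937 with a hairpin against S100A9 (shS100A9), THP-1 with an empty vector, THP-1 overexpressing S100A9, and the last 2 groups again with Adavivint at 1 µM for 36 h. All 6 groups had been transduced and kept in puromycin at 2 µg/mL, beginning 48 h after transduction and lasting at least 24 h, and the labels name no vehicle for the THP-1 cells without the drug. The labels do not say whether the 3 libraries of a group came from separate cultures, so the p-values below measure only the spread between these libraries.

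Libraries held 38.4 M to 84.4 M counts, with 38.4 M to 45.3 M in those with Adavivint and 49.7 M to 84.4 M in the other THP-1 libraries. S100A9 passed the test in the direction of its label in each comparison of vectors, with log2 fold changes of -4.79 in shS100A9 cells, 2.13 in overexpressing THP-1 cells and 2.94 between the vectors under Adavivint. All 10 markers of monocytic leukemia lines were above 1 CPM on average in every group, and the markers of T cells, erythroid cells, platelets, epithelium and stroma summed to at most 1.73 CPM in any library. The 4 B cell markers summed to 10.0 to 30.0 CPM across libraries and stood at 22.1 to 22.5 CPM in THP-1 empty vector cells without Adavivint and 12.1 to 13.1 CPM with it. U937 empty vector library 2, shS100A9 library 3 and, less so, THP-1 empty vector library 1 stood apart from the other libraries of their groups. Their chi-square per gene against those libraries was 135 and 142, 167 and 225, and 25.5 and 37.2, where the remaining pair of each group gave 8.05, 13.1 and 12.3.

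Levels in CPM are scaled by TMM factors over all 18 libraries and are divided by exonic length in kilobases only where genes are compared with one another. That length joins the exons of all annotated transcripts, and the order of the genes depends on it. For PSMG4 it is 10418 bases where the principal transcript has 838, and for PSMA6 6506 against 1029. For PSMA2 it is 5336 against 1487, and for PSMB4 2158 against 964. Changes are log2 fold changes (log2FC) between groups, ± SE where one follows, from edgeR's quasi-likelihood test with Benjamini-Hochberg adjustment. Per kilobase, the non-catalytic beta subunits PSMB4, PSMB3 and PSMB1 led in THP-1 empty vector cells, at 107, 103 and 88.2 CPM per kilobase, followed by the alpha subunit PSMA7 at 81.5 and the constitutive catalytic subunit PSMB7 at 77.1. In U937 empty vector cells the leading 3 were PSMA7, PSMB4 and PSMB3, at 123, 111 and 93.6 CPM per kilobase. The low end in THP-1 empty vector cells held the immunoproteasome subunit PSMB9 at 6.95 CPM per kilobase, the assembly chaperone PSMD9 at 3.34, the alpha-ring chaperone PSMG4 at 1.23 and PSMA8, an alpha subunit best known from testis, at 0.139. All 48 genes together took 0.620, 0.567 and 0.561% of the counts in the 3 THP-1 empty vector libraries, 0.532, 0.521 and 0.521% with overexpression, 0.455, 0.452 and 0.451% with the empty vector and Adavivint, and 0.429, 0.439 and 0.429% with overexpression and Adavivint. In U937 the shares were 0.620, 0.512 and 0.619% with the empty vector and 0.574, 0.604 and 0.418% with shS100A9, so that the libraries standing apart, the second and the third respectively, were the lowest of their groups.

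Between the lines, U937 differed from THP-1 most at PSMA8, while the immunoproteasome subunit PSMB10 and the activator subunit PSME2 were lower in U937 and 4 of the 7 assembly chaperones were higher. Of the 47 tested genes, 12 (25.5%) passed the test at an adjusted p below 0.05, against 26.2% of all 13695 genes fitted, so the share was close to that of the table at large. Each line carried an empty vector, and the labels do not say whether it was the same one, so line and vector cannot be told apart. PSMA8 stood at 6.94, 6.37 and 6.49 CPM in the U937 empty vector libraries and at 0.232, 0.202 and 0.358 CPM in those of THP-1, a 24.8-fold difference (log2 fold change 4.63 ± 0.26, adjusted p = 8.12e-05). The libraries of the lines did not overlap, and PSMA8 was below 1 CPM in every THP-1 library. Also higher in U937 were PSMG1, of one alpha-ring chaperone pair (log2FC 0.67 ± 0.12, adjusted p = 0.00568), and PSMG3 of the other (log2FC 0.41, adjusted p = 0.0223). The base chaperones PSMD10 (log2FC 0.58, adjusted p = 0.00165) and PSMD5 (log2FC 0.36, adjusted p = 0.0167) were higher too, as were PSMA7 (log2FC 0.58, adjusted p = 0.00505) and the proteasome inhibitor PSMF1 (log2FC 0.49, adjusted p = 0.00222). That made 7 higher genes, 14.9% of the 47 against 11.4% of all genes, and the chaperones among them were PSMG1, PSMG3, PSMD5 and PSMD10. The lower genes were 5, 10.6% against 14.8%. They were the base ATPase PSMC3 (log2FC -0.69, adjusted p = 0.00623), PSMB10 (log2FC -0.64, adjusted p = 0.00177), the alpha subunits PSMA2 (log2FC -0.56, adjusted p = 0.0257) and PSMA6 (log2FC -0.32, adjusted p = 0.0309), and PSME2, a subunit of the interferon-inducible activator cap (log2FC -0.44, adjusted p = 0.00653). The other immunoproteasome subunits did not pass: PSMB9 had a log2 fold change of -0.46 (adjusted p = 0.186) and PSMB8 of -0.02 (adjusted p = 0.906). Neither did the catalytic subunits PSMB5, PSMB6 and PSMB7, at log2FC of -0.26, -0.03 and 0.02, nor PSME1, PSME3, PSME4, PSMG2 and PSMG4, at -0.19, -0.19, -0.06, -0.03 and 0.31. DESeq2 called 13 of the 47, against 32.5% of all genes, PSME1 among them (adjusted p = 0.0245). Without U937 empty vector library 2 edgeR called 19 of the 47, 12 higher and 7 lower, and 43.9% of all genes, and without any of the other 5 libraries it called 8 to 10, against 15.3% to 19.7%. PSMG3, PSMD5, PSMA2 and PSMA6 did not pass in all 6 of these fits. Among the 32 related genes outside the set, 6 (18.8%) were higher in U937, led by the ubiquitin shuttle UBQLN2 (log2FC 0.95, adjusted p = 0.000302) and the ubiquitin-activating enzyme UBA1 (log2FC 0.77, adjusted p = 0.0242). The 1 lower related gene (3.12%) was NPLOC4, a cofactor of the segregase VCP (log2FC -0.28, adjusted p = 0.0328). The log2FC of the interferon regulators were -1.04 (adjusted p = 0.0603) for IRF1 and -0.28 for NLRC5, neither past the test by edgeR, while DESeq2 called IRF1 lower (adjusted p = 0.00816). UBA1 and NPLOC4 each passed in 1 of the 6 fits that left out a library. Those of TAP1, NFE2L1, POMP and ADRM1 were 0.21, 0.23, 0.08 and 0.33, and these did not pass either.

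Adavivint went with lower immunoproteasome and interferon-inducible cap transcripts in THP-1 cells of both vectors, while the constitutive catalytic subunits that the immunoproteasome replaces moved by far less. PSMB9 fell 18.1-fold, PSMB10 6.36-fold and PSMB8 2.19-fold in empty vector cells, and all 3 fell in overexpressing cells as well. Large falls outside the immunoproteasome were seen in the chaperone PSMG1, the ubiquitin receptor PSMD4 and the lid subunit PSMD8, and PSMG2, PSMD5, PSMD10, PSMD7 and PSMD14 rose. The drug changed most genes in the table. In empty vector cells 41 of the 47 proteasome genes (87.2%) passed the test against 85.3% of all 15403 genes. In overexpressing cells 40 (85.1%) passed against 84.7%, so passing the test does not set these genes apart. Their directions divided into 10 higher (21.3%) and 31 lower (66.0%) in empty vector cells, where all genes gave 44.2% and 41.1%, and into 15 higher (31.9%) and 25 lower (53.2%) in overexpressing cells, against 43.4% and 41.3%. The median log2 fold change was -0.28 with the empty vector and -0.20 with overexpression, beside 0.06 and 0.04 over all genes. A fall of at least 2-fold that passed the test occurred in 12 of the 47 genes (25.5%) with each vector, against 21.7% and 22.8% of all genes. A rise of that size occurred in PSMG2 with the empty vector and in no gene with overexpression, against 25.8% and 25.3%. In overexpressing cells PSMG2 and PSMD5 rose 1.92-fold and 1.97-fold. Libraries with and without the drug did not overlap for 8 genes higher and 32 lower with the empty vector, 17.0% and 68.1% against 42.8% and 42.4% of all genes, and for 15 higher and 29 lower with overexpression, 31.9% and 61.7% against 43.6% and 44.0%. These are values per total RNA of a sample, and fewer cells of a kind cannot be told apart from less RNA per cell.

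**Figure D1:**
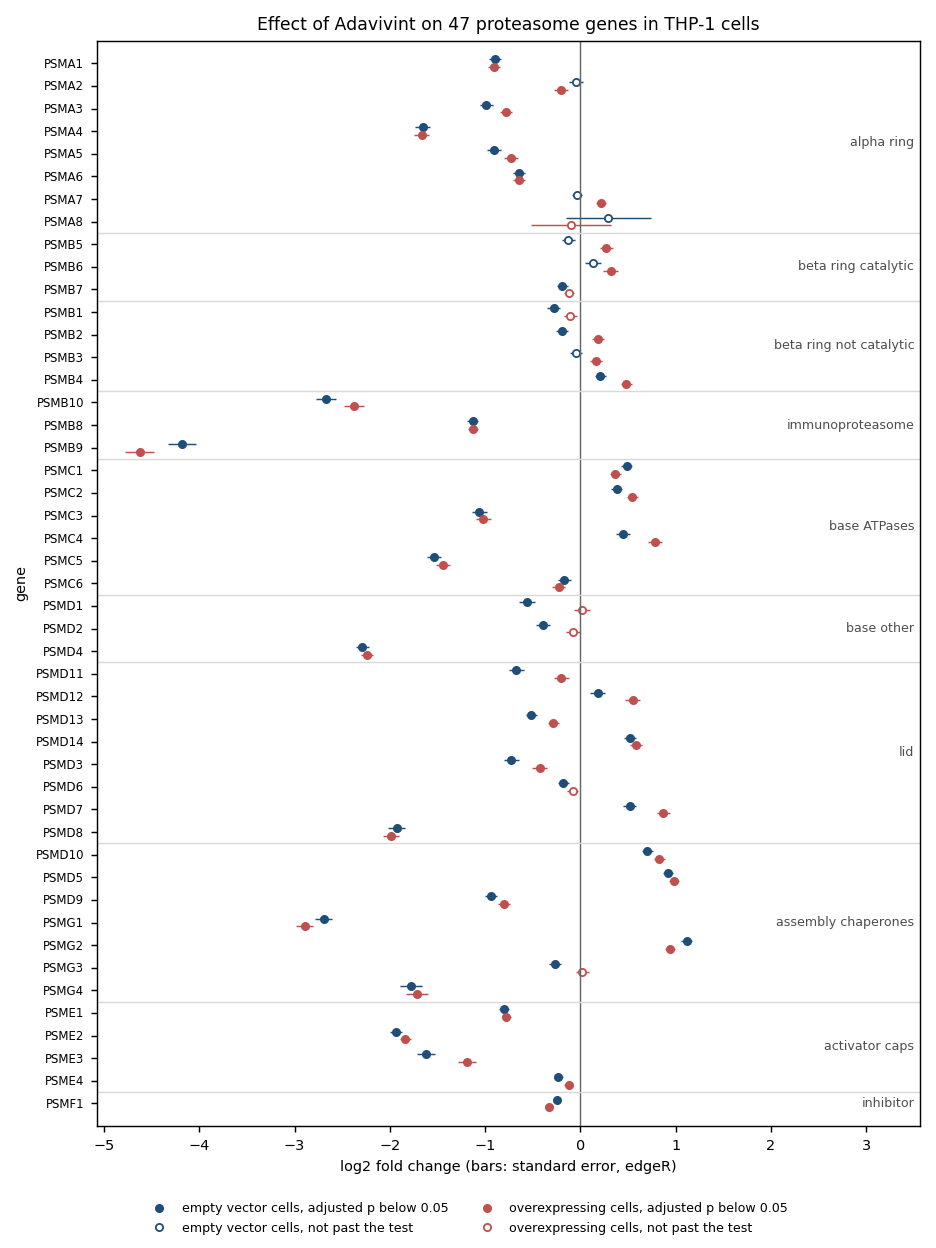
Log2 fold change with Adavivint (horizontal axis) for the 47 tested proteasome genes (vertical axis), in THP-1 cells with the empty vector and with S100A9 overexpression; bars are standard errors from edgeR over 12 libraries, filled points passed an adjusted p of 0.05 and open points did not. PSMB9, PSMG1 and PSMB10 lie furthest to the left with both vectors, and PSMG2 and PSMD5 furthest to the right.

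PSMB9, the immunoproteasome subunit that takes the place of PSMB6, lies on chromosome 6 at 32844136 to 32859585 of GRCh38, on the plus strand, in 6 exons. It stood at 17.4, 21.8 and 24.9 CPM in the THP-1 empty vector libraries and at 1.26, 1.13 and 1.01 CPM with Adavivint, and at 24.6, 21.0 and 21.5 CPM in overexpressing cells and 0.885, 0.966 and 0.781 CPM with Adavivint. All 6 libraries with the drug lay far below all 6 without it, and each still held 34 to 54 reads of the gene. The log2 fold change was -4.18 ± 0.14, adjusted p = 3.87e-12 with the empty vector and -4.63 ± 0.15, adjusted p = 2.16e-12 with overexpression, a 24.7-fold fall in the latter. PSMB10, which replaces PSMB7, lies on chromosome 16 at 67934502 to 67937087, on the minus strand, in 8 exons. It stood at 31.9, 32.2 and 35.3 CPM without the drug and 5.47, 4.87 and 4.76 CPM with it in empty vector cells, and at 29.9, 27.6 and 28.6 against 6.25, 5.47 and 4.44 CPM in overexpressing cells, with no overlap in either (log2FC -2.67 ± 0.11, adjusted p = 1.41e-11 and -2.37 ± 0.10, adjusted p = 4.24e-11). A protein-coding gene on the same strand shares 34.8% of the exonic bases of PSMB10 in the annotation, so its counts are uncertain. PSMB8, which replaces PSMB5, lies beside PSMB9 on chromosome 6 at 32840717 to 32844703, on the minus strand, in 6 exons, and had the highest level per kilobase of the 3 in every group. Its levels were 133, 138 and 146 CPM in empty vector cells and 59.3, 60.9 and 63.6 CPM with the drug, and 141, 134 and 132 against 58.6, 64.5 and 57.0 CPM with overexpression, again without overlap (log2FC -1.13 ± 0.05, adjusted p = 8.82e-11 and -1.13 ± 0.05, adjusted p = 8.8e-11). The antisense RNA PSMB8-AS1 covers 20.6% of its exonic bases and PSMB9 shares 139 bases with it on the other strand, and no source used here says whether reads were counted by strand.

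The constitutive partners moved little. PSMB5, the chymotrypsin-like subunit, stood at 69.3, 59.7 and 60.2 CPM and, with the drug, at 53.6, 56.4 and 57.9 CPM in empty vector cells, where it did not pass (log2FC -0.13, adjusted p = 0.105). In overexpressing cells it rose, from 55.3, 51.7 and 49.6 to 60.6, 64.0 and 58.8 CPM (log2FC 0.27, adjusted p = 0.00231). PSMB6, the caspase-like subunit, had log2 fold changes of 0.13 (adjusted p = 0.141) and 0.32 (adjusted p = 0.00262), and PSMB7, the trypsin-like subunit, of -0.19 (adjusted p = 0.00565) and -0.12 (adjusted p = 0.0604). In empty vector cells DESeq2 called PSMB6 higher (adjusted p = 0.0416), and PSMB7 lost its call with upper-quartile factors. As a description within each library, the ratio of PSMB9 to PSMB6 counts was 0.196, 0.314 and 0.334 in the THP-1 empty vector libraries and 0.0155, 0.0140 and 0.0119 with the drug. The ratio of PSMB10 to PSMB7 was 0.241 ± 0.0247 (SD, n = 3) and 0.0430 ± 0.00179, and that of PSMB8 to PSMB5 was 2.22 ± 0.264 and 1.09 ± 0.0147. In overexpressing cells the same 3 ratios went from 0.338 ± 0.0192, 0.232 ± 0.0109 and 2.60 ± 0.0514 to 0.0110 ± 0.000729, 0.0487 ± 0.00861 and 0.982 ± 0.0236. In each of these the libraries with and without the drug did not overlap.

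**Figure D2:**
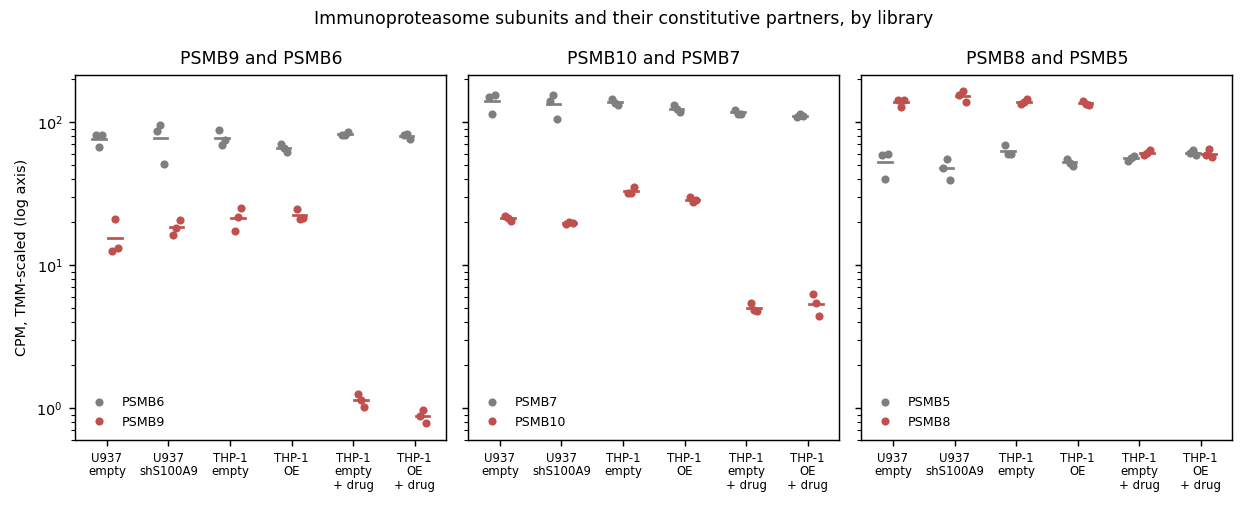
TMM-scaled CPM on a log axis, by group (horizontal axis), for PSMB8 with PSMB5, PSMB9 with PSMB6 and PSMB10 with PSMB7; each point is 1 library and each line the mean of 3. The immunoproteasome member of each pair is lower in the 6 Adavivint libraries than in every other library, most of all PSMB9, at 0.781 to 1.26 CPM.

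The cap subunits PSME1, PSME2 and PSME3 fell with the immunoproteasome in cells of both vectors. PSME2 and its partner PSME1 form the interferon-inducible cap that opens the core without ubiquitin. They lie near each other on chromosome 14, PSME1 at 24136158 to 24138967 on the plus strand and PSME2 at 24143362 to 24147570 on the minus strand, with 11 exons each. PSME2 stood at 85.2, 85.2 and 90.5 CPM and at 21.7, 23.5 and 20.8 CPM with the drug in empty vector cells (log2FC -1.93 ± 0.06, adjusted p = 1.66e-12). In overexpressing cells it stood at 76.8, 78.6 and 75.5 against 19.9, 22.4 and 20.4 CPM (log2FC -1.84 ± 0.06, adjusted p = 2.59e-12). PSME1 stood at 83.2, 80.4 and 82.5 against 44.0, 48.2 and 44.3 CPM, and at 85.2, 81.5 and 84.3 against 45.9, 48.9 and 47.1 CPM (log2FC -0.80, adjusted p = 1.64e-09, and -0.78, adjusted p = 2.13e-09). PSME3, the related nuclear cap, was at 208, 178 and 155 against 61.3, 56.6 and 52.5 CPM, and at 140.5, 137 and 138 against 58.2, 60.4 and 57.7 CPM (log2FC -1.62, adjusted p = 7.74e-10, and -1.19, adjusted p = 2.05e-08). For these 3 genes no library with the drug overlapped one without it. The large cap subunit PSME4 fell by less, with log2 fold changes of -0.23 (adjusted p = 0.000383) and -0.12 (adjusted p = 0.0267), as did the inhibitor PSMF1 (log2FC -0.25, adjusted p = 8.96e-05, and -0.33, adjusted p = 4.69e-06). The call of PSME4 in overexpressing cells was lost with RLE factors, upper-quartile factors, DESeq2 (adjusted p = 0.225) and in 4 of the 6 fits that left out a library.

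The assembly chaperones went apart from one another. PSMG1 and PSMG2 act as a heterodimer that builds the alpha ring; PSMG1 lies on chromosome 21 at 39174769 to 39183851 (minus strand, 7 exons) and PSMG2 on chromosome 18 at 12658043 to 12725740 (plus strand, 7 exons). PSMG1 was at 93.3, 84.6 and 79.1 CPM in empty vector cells and 14.0, 13.4 and 11.2 CPM with the drug, a 6.47-fold fall (log2FC -2.69 ± 0.09, adjusted p = 2.57e-12). With overexpression it was at 84.3, 83.3 and 84.7 against 11.3, 10.3 and 11.2 CPM, a 7.44-fold fall (log2FC -2.90 ± 0.09, adjusted p = 1.47e-12). PSMG2 was at 72.5, 66.1 and 69.0 CPM and 151, 143 and 141 CPM with the drug (log2FC 1.12 ± 0.06, adjusted p = 2.19e-10), and at 72.5, 75.1 and 80.5 against 138, 146 and 140.4 CPM with overexpression (log2FC 0.94 ± 0.06, adjusted p = 1.29e-09). So the partners of the dimer moved in opposite directions with no overlap between libraries, although CEP76 on the other strand shares 13.9% of the exonic bases of PSMG2. In the second alpha-ring pair, PSMG4 fell in both (log2FC -1.78, adjusted p = 2.91e-09, and -1.71, adjusted p = 4.57e-09), while PSMG3 had log2FC of -0.27 (adjusted p = 0.00188) and 0.02 (adjusted p = 0.8). Of the chaperones that build the ATPase ring, PSMD5 rose from 47.8, 49.3 and 46.5 to 86.3, 88.1 and 87.6 CPM in empty vector cells (log2FC 0.92 ± 0.05, adjusted p = 1.14e-09). PSMD10, also known as gankyrin, rose from 35.4, 35.2 and 34.5 to 55.8, 53.8 and 55.8 CPM (log2FC 0.70, adjusted p = 3.13e-08). Both rose in overexpressing cells too (log2FC 0.98 and 0.83), and PSMD9 fell with both vectors (log2FC -0.94 and -0.80).

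The promoters of the genes on which these results turn are printed below to show how far they share sequence. They are RefSeq windows on GRCh38.p14, 250 bases before to 50 after the start, 5′ to 3′ on the strand of the gene. Capitals mark matches on either strand of TGANNNNGC (a loose pattern for the antioxidant response element), CCAAT and GAAANNGAA (interferon-stimulated response element). The first 5 belong to the interferon-inducible genes that fell, and the last 2 to the chaperone pair that moved apart.
PSMB8, chr6:32844630-32844929, minus strand: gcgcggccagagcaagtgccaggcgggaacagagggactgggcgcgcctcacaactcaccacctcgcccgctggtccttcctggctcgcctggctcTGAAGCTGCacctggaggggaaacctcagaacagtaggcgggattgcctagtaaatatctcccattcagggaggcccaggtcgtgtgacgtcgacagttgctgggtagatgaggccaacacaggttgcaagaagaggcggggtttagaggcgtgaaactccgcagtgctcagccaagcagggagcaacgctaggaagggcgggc
PSMB9, chr6:32853942-32854241, plus strand: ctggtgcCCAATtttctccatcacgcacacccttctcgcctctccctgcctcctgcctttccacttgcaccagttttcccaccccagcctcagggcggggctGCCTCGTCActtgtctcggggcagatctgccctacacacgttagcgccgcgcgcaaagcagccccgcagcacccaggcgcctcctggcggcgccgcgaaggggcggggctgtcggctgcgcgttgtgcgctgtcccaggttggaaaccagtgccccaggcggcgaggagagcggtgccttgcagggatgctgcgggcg
PSMB10, chr16:67936801-67937100, minus strand: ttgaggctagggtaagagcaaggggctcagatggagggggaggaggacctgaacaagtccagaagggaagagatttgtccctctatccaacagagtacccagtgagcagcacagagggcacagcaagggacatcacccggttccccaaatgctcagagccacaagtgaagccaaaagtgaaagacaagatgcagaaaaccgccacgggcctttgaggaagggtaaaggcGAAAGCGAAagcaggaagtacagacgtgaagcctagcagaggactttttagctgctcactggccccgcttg
PSME1, chr14:24135944-24136243, plus strand: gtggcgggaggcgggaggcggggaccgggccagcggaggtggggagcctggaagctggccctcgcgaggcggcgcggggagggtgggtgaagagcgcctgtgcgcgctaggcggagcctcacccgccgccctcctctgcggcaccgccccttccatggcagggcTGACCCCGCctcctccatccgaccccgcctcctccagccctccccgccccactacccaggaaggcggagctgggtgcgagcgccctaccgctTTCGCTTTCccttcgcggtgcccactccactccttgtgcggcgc
PSME2, chr14:24146561-24146860, minus strand: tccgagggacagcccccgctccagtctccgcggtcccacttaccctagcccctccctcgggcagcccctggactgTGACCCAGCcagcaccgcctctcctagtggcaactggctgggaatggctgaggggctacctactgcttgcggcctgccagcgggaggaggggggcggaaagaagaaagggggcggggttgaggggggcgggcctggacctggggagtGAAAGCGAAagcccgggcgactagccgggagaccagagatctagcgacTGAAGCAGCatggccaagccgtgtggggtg
PSMG1, chr21:39183402-39183701, minus strand: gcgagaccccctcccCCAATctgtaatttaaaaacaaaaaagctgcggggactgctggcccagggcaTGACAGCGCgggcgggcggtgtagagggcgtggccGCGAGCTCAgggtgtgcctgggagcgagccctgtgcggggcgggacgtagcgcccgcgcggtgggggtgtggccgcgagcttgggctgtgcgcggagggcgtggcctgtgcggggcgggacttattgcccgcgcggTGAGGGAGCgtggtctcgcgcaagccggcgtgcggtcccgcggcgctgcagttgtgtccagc
PSMG2, chr18:12658488-12658787, plus strand: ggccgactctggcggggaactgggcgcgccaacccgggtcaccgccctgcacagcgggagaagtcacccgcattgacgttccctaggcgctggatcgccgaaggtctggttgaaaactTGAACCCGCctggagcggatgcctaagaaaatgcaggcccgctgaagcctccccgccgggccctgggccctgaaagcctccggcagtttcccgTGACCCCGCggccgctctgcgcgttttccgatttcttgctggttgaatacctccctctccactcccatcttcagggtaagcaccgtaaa

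GAAANNGAA was found in PSMB10, PSME1 and PSME2 and not in the windows of PSMB8, PSMB9, PSMG1 and PSMG2. Of the 48 genes, 42 had a window in the RefSeq table, and 7 of these (16.7%) held GAAANNGAA, against 8.29% of all 27305 windows of that length. The other 4 were PSMB4, PSMG4, PSMC2 and PSMA4, of which PSMC2 and PSMB4 rose and PSMG4 and PSMA4 fell with the drug in empty vector cells. TGANNNNGC, a loose pattern for the element that NFE2L1 and NFE2L2 bind, was in 26 (61.9%) against 42.1%, and CCAAT in 19 (45.2%) against 35.7%. Of the motifs not capitalised, CCGGAAG (ETS factors) was in 13 (31.0%) against 10.7%, TTCNNNGAA (gamma-activated site) in 5 (11.9%) against 7.88% and CACGTG (E-box) in 3 (7.14%) against 7.43%. Each window was counted once per motif, matches of different motifs may overlap, and a match is a description of these letters only.

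In the core, the alpha ring was lower with Adavivint in 5 of 8 genes with the empty vector and in 6 of 8 with overexpression, where PSMA7 rose (log2FC 0.21, adjusted p = 0.00227). Of all genes, 41.1% and 41.3% were lower with the respective vectors. PSMA4 was the alpha subunit with the largest fall, from 367, 354 and 325 to 119, 105 and 96.9 CPM in empty vector cells (log2FC -1.66 ± 0.08, adjusted p = 8.12e-11), followed by PSMA3 (log2FC -0.99), PSMA5 (-0.91), PSMA1 (-0.90) and PSMA6 (-0.65). PSMA2 and PSMA7 had log2 fold changes of -0.05 and -0.03 there and did not pass. The 4 non-catalytic beta subunits stayed within log2FC of -0.28 (PSMB1) and 0.21 (PSMB4) in empty vector cells, and within -0.11 and 0.48 in overexpressing cells. PSMB2 was the single gene of the 47 that passed in opposite directions with the 2 vectors (log2FC -0.20, adjusted p = 0.00935, and 0.18, adjusted p = 0.0155), and it lost the call under at least 1 other scaling in each.

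In the regulatory particle the ATPases of the base divided evenly with both vectors, 3 higher and 3 lower of 6. Of all genes, 44.2% were higher and 41.1% lower with the empty vector, and 43.4% and 41.3% with overexpression. The even split is thus near that of the table at large. PSMC5 fell from 134, 121 and 117 to 40.0, 43.7 and 40.5 CPM in empty vector cells (log2FC -1.53 ± 0.07, adjusted p = 9.95e-11). PSMC3 fell from 171, 148 and 138 to 71.9, 72.9 and 67.0 CPM (log2FC -1.06, adjusted p = 1.13e-08), and PSMC6 fell slightly (log2FC -0.17, adjusted p = 0.0326). The PSMC6 call in empty vector cells was lost with RLE and upper-quartile factors, with DESeq2 (adjusted p = 0.0872), in the fit of the 2 groups alone and in 2 of the 6 fits that left out a library, empty vector library 1 without the drug or library 2 with it. PSMC1, PSMC4 and PSMC2 rose, with log2FC of 0.48, 0.45 and 0.38, and in overexpressing cells PSMC4 reached log2FC of 0.78 (adjusted p = 2.74e-07). The exons of PSMC1 lie for 75.8% of their bases over NRDE2 on the other strand, and those of PSMC5 for 19.5% over FTSJ3, so the counts of both are uncertain. PSMD4, a ubiquitin receptor of the base on chromosome 1 at 151254703 to 151267479 (plus strand, 10 exons), fell from 186, 174 and 177 to 37.3, 36.9 and 32.0 CPM in empty vector cells (log2FC -2.29 ± 0.07, adjusted p = 7.73e-13). It fell from 179, 163 and 167 to 35.8, 35.6 and 33.1 CPM in overexpressing cells (log2FC -2.24 ± 0.07, adjusted p = 8.37e-13), and the libraries overlapped with neither vector. The scaffold subunits PSMD1 and PSMD2 fell in empty vector cells (log2FC -0.56, adjusted p = 2.76e-05, and -0.39, adjusted p = 0.000149) and did not pass in overexpressing cells (log2FC 0.02, adjusted p = 0.87, and -0.08, adjusted p = 0.321). In the lid, the structural subunit PSMD8 fell from 188, 167 and 161 to 45.5, 46.3 and 39.3 CPM (log2FC -1.93 ± 0.09, adjusted p = 4.85e-11). The deubiquitinase PSMD14 and its partner PSMD7 both rose, with log2FC of 0.52 and 0.52 with the empty vector and 0.58 and 0.87 with overexpression. The 5 falls and 3 rises among the 8 lid genes in empty vector cells compare with 4 and 3 in overexpressing cells. The shares of all genes given for the ATPases apply here too.

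The drug effects with the 2 vectors share no library and were alike across the genes. Pearson's r was 0.983 and Spearman's rho 0.958 over the 47 genes, and 0.942 and 0.957 over all 15403 genes, where both effects come from 1 fit and 1 scaling. Of the 41 and 40 genes called, 35 were called with both vectors, 85.4% and 87.5% of the respective lists, 10 higher, 24 lower and PSMB2 in opposite directions. As a description across genes, Spearman's rho between the log2 fold change in empty vector cells and the length of the gene was 0.18 over the 47 genes and -0.03 over all 15303 genes with an annotated structure, and with exonic length it was -0.09 and -0.04.

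Among the 32 related genes, chosen for their roles around the proteasome, 10 rose (31.2%) and 17 fell (53.1%) with the drug in empty vector cells, against 44.2% and 41.1% of all genes. In overexpressing cells 12 rose (37.5%) and 14 fell (43.8%), against 43.4% and 41.3%, and in all 84.4% and 81.2% of the related genes passed, about as in the whole table (85.3% and 84.7%). The interferon regulators did not move as one. IRF1, a transcription factor for immunoproteasome genes, was at 23.4, 24.8 and 25.4 CPM and at 23.3, 23.5 and 23.5 CPM with the drug in empty vector cells. By edgeR it passed with neither vector (log2FC -0.02, adjusted p = 0.814, and 0.08, adjusted p = 0.23), although DESeq2, RLE factors and upper-quartile factors called it higher in overexpressing cells (DESeq2 adjusted p = 0.0433), and its empty vector libraries with and without the drug overlapped. NLRC5, the transactivator of MHC class I genes, fell (log2FC -1.85, adjusted p = 2.04e-10, and -1.64, adjusted p = 6.63e-10). The peptide transporter genes TAP1 and TAP2, neighbours of PSMB8 and PSMB9, fell as well, TAP1 with log2FC of -1.40 and -1.62 and TAP2 of -2.74 and -2.65. PAAF1, which chaperones the ATPase ring, and the deubiquitinase UCHL5 fell most of the remainder, PAAF1 with log2FC of -2.62 ± 0.11, adjusted p = 2.18e-11 in empty vector cells and UCHL5 with -2.57 ± 0.09, adjusted p = 4.68e-12 in overexpressing cells. AKIRIN2, which brings proteasomes into the nucleus, and NFE2L2 rose most (log2FC 1.13 and 1.20 with the empty vector, 1.25 and 1.21 with overexpression), and ADRM1, another ubiquitin receptor, rose with log2FC of 0.69 and 1.09. NFE2L1, the factor that drives proteasome genes when proteasome activity is short, fell slightly (log2FC -0.19, adjusted p = 0.00989, and -0.24, adjusted p = 0.00264). Its call in empty vector cells was lost with upper-quartile factors in edgeR (adjusted p = 0.0906). POMP, the maturation factor of the core, fell with the empty vector (log2FC -0.33, adjusted p = 0.00213) and did not pass with overexpression (log2FC 0.01, adjusted p = 0.935), a difference between the vectors with an adjusted p of 0.0614. The depth of the libraries and several marker lists moved with these drug effects, and their part in them was not tested. In empty vector cells the 10 monocytic markers summed to 1581 to 1686 CPM without the drug and 1869 to 2051 CPM with it, the 2 of 5 T cell markers with a row to 0 to 0.0331 and 0.279 to 0.603 CPM, and 5 erythroid markers to 0 to 0.279 and 0.605 to 0.818 CPM. Within the monocytic list LYZ and PTPRC were at means of 334 and 358 CPM without the drug and 665 and 456 CPM with it, while CD33 went from 85.0 to 21.6 CPM, FCER1G from 49.6 to 27.1, CD68 from 32.7 to 20.5 and ITGAM from 28.0 to 7.59.

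S100A9 overexpression in THP-1 without the drug went with slightly lower levels of many proteasome genes and with no call among the immunoproteasome subunits. Of the 47 genes, 20 (42.6%) were lower and 0 higher, against 13.0% lower and 14.9% higher, 28.0% in all, of the 15403 genes. At an unadjusted p below 0.05, where 39.8% of all genes lay, 26 were lower and 1 higher, the chaperone PSMG2 (log2FC 0.14, adjusted p = 0.0829). DESeq2 called 24 lower and 0 higher, and 32.0% of all genes. All changes were under 2-fold, and the median was -0.17 on the log2 scale beside 0.02 over all genes. The libraries of the 2 vectors did not overlap in 27 genes, all lower with overexpression (57.4%), against 20.2% of all genes lower in that way. Lower calls were made in 4 of 4 non-catalytic beta subunits, 5 of 8 lid subunits, 3 of 4 cap subunits, and 2 of 3 non-ATPase base subunits. They were made in 3 of 8 alpha subunits, 1 of 3 constitutive catalytic subunits, 1 of 6 base ATPases and 1 of 7 assembly chaperones. Of these 20 calls, 9 held in all 6 fits that left out a library. Among the non-catalytic beta subunits they were PSMB2 and PSMB3, in the lid PSMD3, PSMD11 and PSMD13, and among the caps PSME3.

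PSMD1, the largest scaffold of the base, lies on chromosome 2 at 231056864 to 231172827 (plus strand, 25 exons) and stood at 168, 143 and 126 CPM with the empty vector and 105, 105 and 103 CPM with overexpression (log2FC -0.49 ± 0.08, adjusted p = 0.00146), 1.40-fold lower. The lid scaffold PSMD11 stood at 144, 126 and 112 against 93.8, 94.3 and 97.4 CPM (log2FC -0.42 ± 0.08, adjusted p = 0.00259). PSMB2, a non-catalytic beta subunit, stood at 209, 194 and 175 against 153, 146 and 144 CPM (log2FC -0.38 ± 0.06, adjusted p = 0.00103). In each of these the overexpressing libraries lay close together below all empty vector libraries, among which library 1 was the highest. PSME3 was at 208, 178 and 155 against 140.5, 137 and 138 CPM (log2FC -0.38, adjusted p = 0.00785) and PSMD2 at 282, 240.4 and 231 against 209, 188 and 188 CPM (log2FC -0.36, adjusted p = 0.00284). PSMB5 was the constitutive catalytic subunit that passed (log2FC -0.27, adjusted p = 0.0113), and PSMB6 and PSMB7 had log2FC of -0.23 (adjusted p = 0.0537) and -0.15 (adjusted p = 0.0585). DESeq2 called all 3 lower (adjusted p = 0.0185 for PSMB6 and 0.0211 for PSMB7), as did RLE factors, upper-quartile factors and library totals in edgeR. Smaller falls were called in PSMG3 (log2FC -0.23, adjusted p = 0.02), PSME2 (log2FC -0.17, adjusted p = 0.0398) and PSME4 (log2FC -0.17, adjusted p = 0.018), of which PSMG3 kept the call in 3, PSME2 in 0 and PSME4 in 4 of the 6 fits that left out a library. The immunoproteasome subunits did not pass: PSMB8 was at 133, 138 and 146 against 141, 134 and 132 CPM (log2FC -0.03, adjusted p = 0.687), PSMB9 at 0.07 (adjusted p = 0.68) and PSMB10 at -0.20 (adjusted p = 0.125) on the log2 scale. DESeq2 called 0 of those 3 too, and at an unadjusted p below 0.05 there was 1, PSMB10. PSME1, PSMF1, PSMG1 and PSMG4 had log2 fold changes of 0.03, -0.03, -0.02 and -0.15 and did not pass. With PSMB8 about level and PSMB5 lower, the PSMB8 to PSMB5 ratio was 1.92, 2.31 and 2.43 in empty vector libraries and 2.55, 2.58 and 2.65 in overexpressing libraries, without overlap. The ratio of PSMB9 to PSMB6 did overlap, at 0.196 to 0.334 with the empty vector and 0.316 to 0.351 with overexpression. That of PSMB10 to PSMB7 overlapped too, at 0.218 to 0.267 and 0.223 to 0.244, with means of 0.241 and 0.232.

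THP-1 empty vector library 1, which stood apart, was above the other libraries of its group for most proteasome genes, with a median deviation of 0.16 on the log2 scale and 7 of 47 genes below them (14.9%, against 51.5% of 12913 genes). Without it, 11 of the 47 genes passed, 10 lower and PSMG2 higher, against 20% of all 15567 genes (3107) in either direction. That is nearer to the share of all genes than the 42.6% against 28.0% with all libraries. The split of all genes by direction was not counted for this fit, where the median over the 47 was -0.10. In that fit PSMD1, PSMD11 and PSMB2 had log2 fold changes of -0.35, -0.30 and -0.30 (adjusted p = 0.0013, 0.00437 and 0.00171). The count was 12 without overexpression library 2 and 11 without overexpression library 3, against 17.6% and 18.7% of all genes, and 9 of the 20 genes were called in all 6 fits that left out 1 library: PSMA7, PSMB2, PSMB3, PSMD1, PSMD2, PSMD3, PSMD11, PSMD13 and PSME3. The 4 of 6 epithelial markers with a row, at 0.430 to 0.936 CPM in sum with the empty vector and 1.24 to 1.73 CPM with overexpression, moved with this comparison, and their part in it was not tested.

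**Figure D3:**
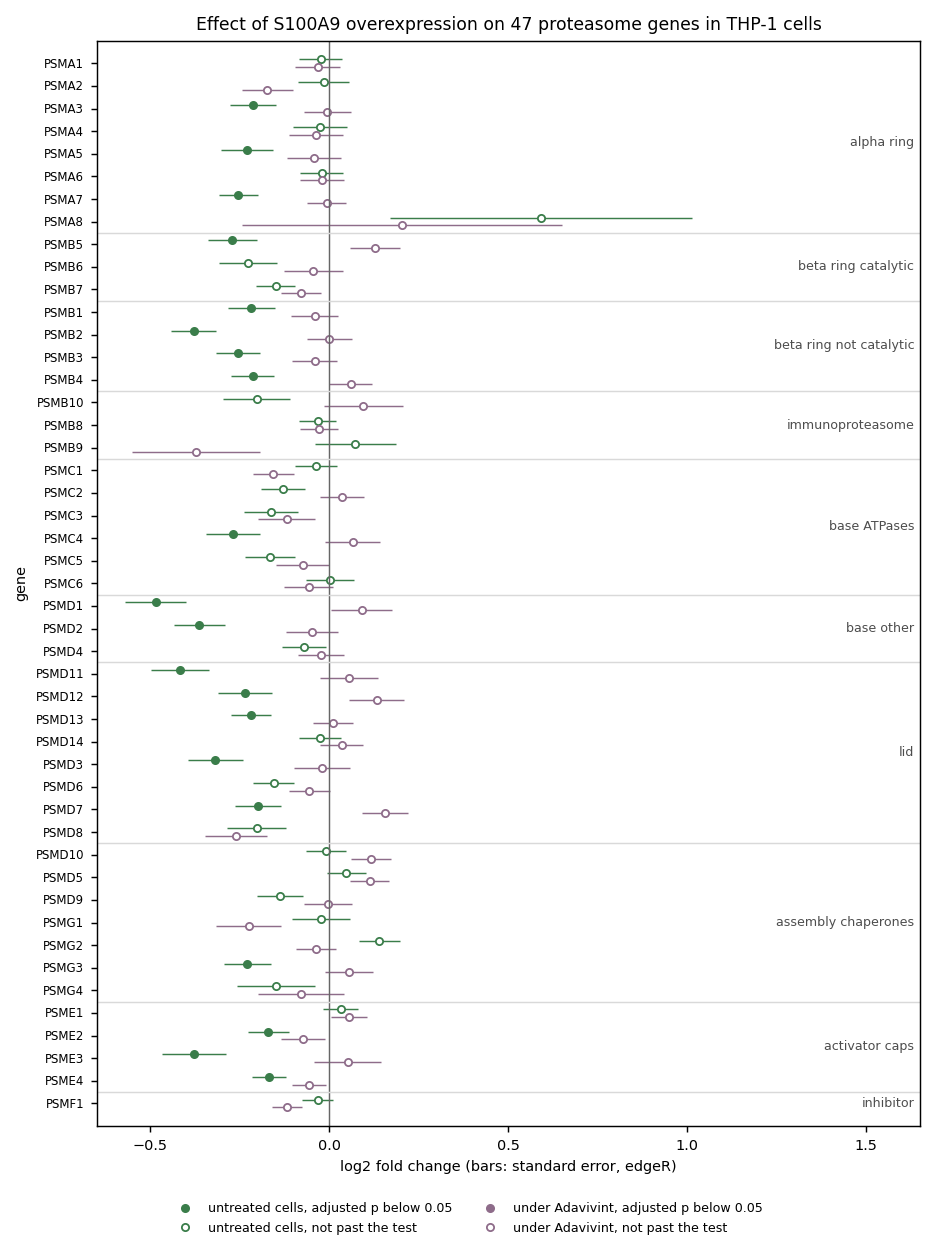
Log2 fold change between S100A9 overexpression and empty vector in THP-1 (horizontal axis) for the 47 tested proteasome genes (vertical axis), without the drug and with Adavivint; bars are standard errors from edgeR over 12 libraries, filled points passed an adjusted p of 0.05 and open points did not. Without the drug 20 genes passed, all to the left of 0, and with the drug none did.

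Of the 32 related genes, 5 (15.6%) were higher and 12 (37.5%) lower with overexpression, against 14.9% and 13.0% of all genes. ADRM1 and the shuttle UBQLN4 fell most (log2FC -0.47, adjusted p = 0.00618, and -0.45, adjusted p = 0.000834), and the proteasome adaptor ECPAS and NFE2L1 rose most (log2FC 0.30, adjusted p = 0.00132, and 0.26, adjusted p = 0.0075). POMP fell (log2FC -0.24, adjusted p = 0.0471), a call lost without the filter, with the replicate block, in the fit of the 2 groups alone and in 4 of the 6 fits that left out a library. IRF1, NLRC5 and TAP1 had log2FC of -0.01, -0.11 and 0.07 and did not pass.

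Under Adavivint no proteasome gene passed the test between the vectors. edgeR called 0 of the 47 genes against 8.50% of all genes (3.69% higher, 4.80% lower). At an unadjusted p below 0.05, 1 was higher and 5 lower, against 23.3% of all genes, and DESeq2 called 1 and 13.2% of all genes, PSMD8 (log2FC -0.26 by edgeR). Libraries did not overlap for 6 genes higher and 6 lower with overexpression, 12.8% each, against 15.9% and 16.9% of all genes. Log2 fold changes ran from -0.37 (adjusted p = 0.23) in PSMB9 to 0.20 in PSMA8. PSMB8 and PSMB10 had log2FC of -0.03 and 0.10, PSMB5, PSMB6 and PSMB7 0.13, -0.05 and -0.08, and the caps PSME1 to PSME4 0.06, -0.07, 0.05 and -0.06. PSMF1 and the chaperones PSMG1 to PSMG4 had log2FC of -0.12, -0.23, -0.04, 0.06 and -0.08. Among the related genes 4 (12.5%) were higher, led by AKIRIN2 (log2FC 0.30, adjusted p = 0.00843) and RPS27A (log2FC 0.22, adjusted p = 0.0258) and including NFE2L1 (log2FC 0.22, adjusted p = 0.0456). The 1 lower (3.12%) was the proteasome adaptor ECPAS (log2FC -0.20, adjusted p = 0.028). Of the 6 fits that left out a library, NFE2L1 passed in 0, ECPAS in 1 and RPS27A in 2, and NFE2L1 also lost the call with library totals, without the filter and with the replicate block. IRF1, NLRC5, TAP1, POMP and ADRM1 had log2FC of 0.09, 0.09, -0.15, 0.10 and -0.07 and did not pass.

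The test of whether the drug effect differed between the vectors called 12 of the 47 genes (25.5%), all with a more positive drug effect in overexpressing cells, against 8.04% of all genes in that direction, and 0 in the other direction, against 11.2%. In total 19.3% of all genes passed. At an unadjusted p below 0.05, 16 were positive and 1 negative, PSMG2 (difference -0.18, adjusted p = 0.137), against 33.5% of all genes, and DESeq2 called 14 and 0, against 23.7% of all genes. This test uses the same libraries as the comparisons above, so it is the same 4 groups read another way. The groups were not laid out alike in all 12 genes. PSMD1, with the largest difference, was at 168, 143 and 126 CPM with the empty vector and at 93.9, 92.9 and 101 CPM once the drug was added. In overexpressing cells it was at 105, 105 and 103 CPM without the drug and at 104, 101 and 101 CPM with it. The empty vector libraries without the drug were thus above all the rest, and the other 3 groups lay close together (difference 0.58 ± 0.12, adjusted p = 0.00665). For PSMB5, whose libraries are given above, the empty vector group mean was 63.1 CPM without the drug and 56.0 CPM with it, and the overexpression means were 52.2 and 61.1 CPM (difference 0.40 ± 0.10, adjusted p = 0.0145). PSMD7 rose with both vectors, from 121 to 167 CPM on average with the empty vector and from 105 to 186 CPM with overexpression (difference 0.35 ± 0.09, adjusted p = 0.0179). Of its exonic bases, 30.7% are shared with a noncoding transcript on the other strand. The differences were 0.47 (adjusted p = 0.0136) for PSMD11, 0.43 (adjusted p = 0.0344) for PSME3, 0.38 (adjusted p = 0.0114) for PSMB2 and 0.37 (adjusted p = 0.0305) for the lid subunit PSMD12. They were 0.33 (adjusted p = 0.0456) for the ATPase PSMC4, 0.32 (adjusted p = 0.0446) for PSMD2 and 0.29 (adjusted p = 0.0487) for PSMG3. The smallest called were 0.27 (adjusted p = 0.0389) for PSMB4 and 0.25 (adjusted p = 0.0386) for PSMA7, each with 3 libraries a group. Nothing passed among the immunoproteasome subunits, where the difference was -0.44 (adjusted p = 0.16) for PSMB9, 0.30 (adjusted p = 0.167) for PSMB10 and 0.0035 (adjusted p = 0.994) for PSMB8. DESeq2 called 0 of the 3 and none had an unadjusted p below 0.05. PSMB6, PSMB7, PSME1, PSME2, PSME4, PSMF1, PSMG1 and PSMG4 had differences of 0.18, 0.07, 0.02, 0.10, 0.11, -0.09, -0.20 and 0.07. Leaving out 1 library at a time gave 5 to 15 calls, against 12.1% to 24.0% of all genes. Under 8 were left after omitting overexpression library 2 or 3 (5 and 6), empty vector library 1 or 2 with Adavivint (6 and 5) or overexpression library 1, 2 or 3 with Adavivint (6, 5 and 7), where 12.1% to 14.3% of all genes passed in either direction. These counts were close to that share, but all of these calls were positive. The share of all genes with a positive call was not counted for these fits. PSMB2, PSMB5, PSMD1, PSMD7 and PSMD11 passed in all 12 of these fits. With library totals in place of TMM factors 7 genes were positive and PSMG2 negative, against 21.7% of all genes. Of the related genes 5 (15.6%) were positive, led by UBQLN4 (difference 0.33, adjusted p = 0.0395) and UBB (difference 0.33, adjusted p = 0.0135), and 1 negative (3.12%), ECPAS (difference -0.50, adjusted p = 0.00101). UBQLN4 passed in 3 of the 12 fits that left out a library, and UBB and ECPAS in all 12. NFE2L1, IRF1, NLRC5, TAP1, POMP and ADRM1 had differences of -0.04, 0.10, 0.20, -0.22, 0.34 and 0.40.

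S100A9 knockdown in U937 changed few proteasome genes by the test. The base chaperone PSMD10 and the alpha subunit PSMA6 fell, 2 of 47 genes (4.26%) against 1.54% of all 13016 genes, and 0 rose, against 0.230%, or 1.77% in all. PSMD10 lies on chromosome X at 108084207 to 108091618 (minus strand, 5 exons) and stood at 55.1, 50.9 and 51.2 CPM with the empty vector and 34.8, 34.3 and 35.1 CPM with shS100A9 (log2FC -0.60 ± 0.09, adjusted p = 0.0353). PSMA6 lies on chromosome 14 at 35278633 to 35317493 (plus strand, 7 exons) and stood at 124, 126 and 118 against 90.7, 80.8 and 80.5 CPM (log2FC -0.55 ± 0.09, adjusted p = 0.0416). In both genes the 3 knockdown libraries lay below all empty vector libraries, and 14.1% of the exonic bases of PSMA6 are shared with another gene on its strand. At an unadjusted p below 0.05, where 14.3% of all genes lay, 2 genes were higher, PSMA8 and PSME1. PSMA8 was at 6.94, 6.37 and 6.49 against 11.2, 11.0 and 10.3 CPM (log2FC 0.70, adjusted p = 0.0595), and PSME1 had log2FC of 0.25 (adjusted p = 0.27). Another 4 were lower, which besides the 2 called were PSMC3 (log2FC -0.61, adjusted p = 0.282) and PSMF1 (log2FC -0.29, adjusted p = 0.184). DESeq2 called 4, PSMA8 higher and PSMD10, PSMA6 and PSMF1 lower, against 6.75% of all genes. Libraries did not overlap for 2 genes higher, PSMA8 and PSME1, and 6 lower, PSMA6, PSMB10, PSMC3, PSMD10, PSMF1 and PSMG2, which is 4.26% and 12.8% against 11.2% and 11.5% of all genes. The immunoproteasome subunits PSMB8, PSMB9 and PSMB10 had log2 fold changes of 0.15, 0.24 and -0.12, the catalytic subunits PSMB5, PSMB6 and PSMB7 -0.17, 0.02 and -0.07, and PSME2, PSME3 and PSME4 0.05, -0.28 and -0.08, none past the test. The alpha-ring chaperones PSMG1 to PSMG4 had log2FC of -0.12, -0.17, -0.13 and 0.05. Of the 32 related genes edgeR called 0, with 1 higher and 2 lower at an unadjusted p below 0.05, and DESeq2 called 2, both lower. POMP, NLRC5, NFE2L1, IRF1, TAP1 and ADRM1 had log2FC of -0.42, 0.38, -0.23, 0.01, 0.05 and -0.03.

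The U937 comparison depended on the 2 libraries that stood apart. Without empty vector library 2 and shS100A9 library 3, 19 of the 47 genes passed, 5 higher and 14 lower, where 32.9% of all genes did. Among the 5 were PSMB9 (log2 fold change 0.41, adjusted p = 0.00816), PSMB8 (log2FC 0.16, adjusted p = 0.0344) and PSMA8 (log2FC 0.71), and among the 14 PSMC3 (log2FC -0.49, adjusted p = 0.000379), PSMD10 (log2FC -0.63, adjusted p = 0.000348) and PSMA6 (log2FC -0.51, adjusted p = 0.0014). With those 2 libraries left out each group had 2 libraries. Leaving out 1 library at a time gave 1 call, PSMD10, without empty vector library 2, against 2.74% of all genes, and 0 without any of the other 5, against 0.136% to 1.31%. NFE2L1 had log2FC of -0.23 (adjusted p = 0.699) with all libraries and 0.14 (adjusted p = 0.0432) without those 2.

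In both of these libraries the proteasome genes were low as a set. Empty vector library 2 was below the mean of the other libraries of its group in 42 of 47 genes (89.4%, against 49.1% of 12913 genes), with a median log2 deviation of -0.30. Library 3 with shS100A9 was below in 43 of 47 (91.5%, against 49.7%), with a median of -0.50. PSME3 deviated by -1.23 and -1.06 in the respective libraries, PSMD1 by -1.15 and -1.12, PSMD2 by -0.82 and -0.98 and PSMB2 by -0.81 and -0.85, while PSMB9 deviated by 0.67 and 0.24. PSME3, for one, was at 198, 83.0 and 193 CPM in the 3 empty vector libraries and at 152, 165 and 75.7 CPM in the 3 shS100A9 libraries. Across genes the deviations of the 2 libraries had a Pearson's r of 0.82 and Spearman's rho of 0.80 over the 47 genes, beside 0.50 and 0.58 over all 12913 genes. The deviations were also correlated across genes with the overexpression effect in THP-1, which comes from other libraries. Pearson's r was 0.67 for empty vector library 2 and 0.70 for shS100A9 library 3 over the 47 genes, with rho of 0.72 and 0.75, and 0.44 and 0.43 over all genes, with rho of 0.53 and 0.57. Without THP-1 empty vector library 1 both r values over the 47 genes were 0.58. The points of each of these correlations share libraries and the genes are not independent, so they are given as descriptions. PSMD1, PSMD2, PSMB2 and PSME3, all among the 5 largest falls in overexpressing THP-1 cells, thus also differed widely between U937 libraries of 1 group, and the part that such variation plays in the overexpression comparison was not tested.

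**Figure D4:**
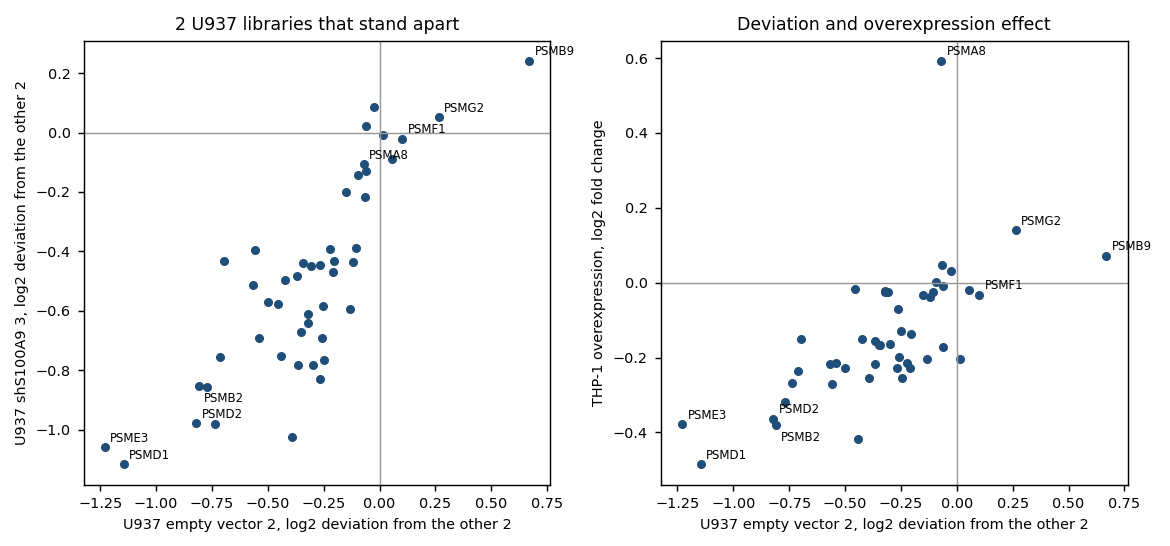
Each point is 1 of 47 proteasome genes; axes are log2 deviations of a U937 library from the mean of the other libraries of its group, or the log2 fold change with S100A9 overexpression in THP-1 cells, as labelled, and lines mark 0. Most points lie below 0 in both U937 libraries that stood apart, and PSMD1 and PSME3 lie furthest, at -1.15 and -1.23 in the empty vector library.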

How the data were processed

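Total RNA of 18 samples in 6 groups was sequenced. Per the submitters' processing notes reads were aligned with HISAT2 2.0.4, and the authors deposited whole-number read counts per gene with Ensembl identifiers; the counting tool, its strand setting and the genome build were not given in these sources. Symbols were matched for 18642 of 18670 genes. The genes and lists described here were chosen with earlier results of these data known.

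Counts were fitted with edgeR 4.0.16 in R 4.3.3: TMM factors, filterByExpr, glmQLFit and glmQLFTest, with Benjamini-Hochberg adjustment over all genes of a fit and a threshold of 0.05. The 6 U937 libraries (13016 genes), the 12 THP-1 libraries (15403 genes) and the 6 empty vector libraries (13695 genes) had a fit each. Standard errors were derived as |log2FC| over the root of the F statistic. The fit was tested on simulated data with the same dispersion for every gene and no library that stands apart. That test cannot show how the fit behaves with such libraries. Positions and lengths are from GENCODE 29 on GRCh38, promoters from RefSeq GRCh38.p14. Several of these genes have pseudogene copies, and how reads matching both were counted is not given. Alternatives were DESeq2 1.42.0, other size factors, no filter, a replicate block, smaller fits, libraries left out and a wider gene rule. Figures were drawn with matplotlib 3.10.9.

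Named genes were PSMB5 to PSMB10, PSME1 to PSME4, PSMF1 and PSMG1 to PSMG4 in every comparison, the 5 higher and 5 lower genes with the largest called change, every gene called in the U937 comparison or the test of the drug effect between vectors, and, of the 32 related genes, NFE2L1, IRF1, NLRC5, TAP1, POMP, ADRM1 and the 2 highest and 2 lowest called. Others were named after their values were seen, as subunits of a group being described. One further gene of the original list is not reported here.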

Additional observations from a re-analysis of the deposited data

Results flagged for a closer look

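The drug effects of Adavivint with the 2 vectors in THP-1 differed by the test of the difference itself (edgeR, log2 effect with overexpression minus log2 effect with the empty vector, ± SE, 3 libraries a group) in 12 of 47 proteasome genes and 6 of 32 related genes, of which the 12 and the 3 named by the rule are given here. These are 25.5% and 18.8%, against 19.3% of all 15403 genes. Positive differences were called in 25.5% and 15.6%, against 8.04% of all genes. In the core particle the differences were 0.40 ± 0.10 for PSMB5 (adjusted p = 0.0145), 0.38 ± 0.09 for PSMB2 (adjusted p = 0.0114), 0.27 ± 0.08 for PSMB4 (adjusted p = 0.0389) and 0.25 ± 0.08 for PSMA7 (adjusted p = 0.0386). In the base of the regulatory particle they were 0.58 ± 0.12 for PSMD1 (adjusted p = 0.00665), 0.32 ± 0.10 for PSMD2 (adjusted p = 0.0446) and 0.33 ± 0.11 for PSMC4 (adjusted p = 0.0456). In the lid they were 0.47 ± 0.12 for PSMD11 (adjusted p = 0.0136), 0.37 ± 0.11 for PSMD12 (adjusted p = 0.0305) and 0.35 ± 0.09 for PSMD7 (adjusted p = 0.0179). Of the chaperones and caps they were 0.29 ± 0.09 for PSMG3 (adjusted p = 0.0487) and 0.43 ± 0.13 for PSME3 (adjusted p = 0.0344). All 12 are positive, and PSMB2, PSMB5, PSMD1, PSMD7 and PSMD11 passed in each fit without 1 library. Of those 12 fits PSMG3 passed in 2, PSME3 in 3, PSMA7, PSMC4 and PSMD2 in 4, PSMB4 in 5 and PSMD12 in 6.

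Among the related genes, 1 had a negative difference, the proteasome adaptor ECPAS, with -0.50 ± 0.07 (adjusted p = 0.00101). The shuttle UBQLN4 and the polyubiquitin gene UBB had positive differences, with 0.33 ± 0.10 for UBQLN4 (adjusted p = 0.0395) and 0.33 ± 0.08 for UBB (adjusted p = 0.0135). No cause was tested for any of these.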

How the results depend on the processing

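The 7 counts of called proteasome genes were recomputed under each alternative, and every setting gave a value. With Adavivint 41 (empty vector) and 40 (overexpression) genes became 39 to 41 and 35 to 40 with 1 library left out and 37 to 42 over all other alternatives. In these settings 72.8% to 86.9% of all genes passed. In U937 the 2 calls became 1 with upper-quartile factors, 1 without the filter, 4 with DESeq2, 0 with the replicate block, 19 without the 2 libraries that stood apart, and 0 to 1 with 1 library left out. The shares of all genes were 1.44%, 1.01%, 6.75%, 0.023%, 32.9% and 0.136% to 2.74% in the same order. For overexpression without the drug the 20 calls became 11 to 26 with 1 library left out, against 17.6% to 32.1% of all genes. For overexpression under Adavivint the 0 calls became 5 with library totals, 1 with DESeq2, 1 with the replicate block, 2 with the fit of the 2 groups alone and 0 to 2 with 1 library left out. The shares of all genes were 12.6%, 13.2%, 6.38%, 12.4% and 3.22% to 7.53% in the same order. For the drug effect between vectors the 12 calls became 7 without the filter, 7 with the replicate block and 5 to 15 with 1 library left out. The shares of all genes were 14.6%, 16.1% and 12.1% to 24% in the same order. Between the lines the 12 calls became 8 to 19, against 15.3% to 43.9% of all genes. NFE2L1 in U937 reversed, to 0.14 without the 2 libraries that stood apart. The cause was not tested for any of these. Some of the settings also leave fewer libraries or other numbers of genes. No called gene changed sign with RLE factors, upper-quartile factors or library totals, and no scaling moved the median of all genes by 0.1.

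Same-numbered libraries did not deviate together (r of 0.238, -0.506 and -0.432 in U937 and -0.0967 to 0.0932 in THP-1), so the replicate numbers were not taken as a pairing. In U937 the 2 libraries that stood apart bear different numbers and had r of 0.5 with each other. The U937 values therefore cannot decide whether the libraries were paired. The replicate block gave 9 calls between the lines, 21 for overexpression without the drug, and 40 and 41 for the drug. The shares of all genes with that block were 21%, 25.1%, 84.4% and 84.1%. With 3 libraries a group, PSMB9 under Adavivint rested on 34 to 54 reads a library and PSMA8 in THP-1 on few reads, which limits the precision of both.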
